A study of Mus musculus with 6 samples.

Results

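The genes described are 10 growth factor receptor tyrosine kinases of 4 families: the insulin and IGF receptors (Insr, Igf1r), the FGF receptors (Fgfr1, Fgfr2, Fgfr3), the EGF receptor family (Egfr, Erbb2, Erbb3) and the PDGF receptors (Pdgfra, Pdgfrb). They were taken by symbol from a table of 40413 genes, and all 10 symbols were found. RNA was sequenced from N2A-A5 cells, a line derived from the mouse neuroblastoma line Neuro-2a and called acceptor cells in the labels, which do not say whether it is a single clone. A group of 3 libraries came from undifferentiated cells at 0 h, grown with 10% fetal bovine serum and blasticidin and given no differentiation treatment. The other 3 came from cells kept for 96 h with 1% serum and 10 µM retinoic acid, without blasticidin. Retinoic acid, serum, blasticidin and time changed together, so their effects cannot be told apart. The design text calls the libraries of a group biological replicates.

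Receptor tyrosine kinases span the cell membrane, bind a growth factor outside the cell and add phosphate to tyrosines on each other and on adaptor proteins inside it. From there the signal runs mainly through the RAS-ERK, PI3K-AKT and phospholipase C gamma routes. Serum carries ligands for several of these receptors. In neuroblastoma, IGF and PDGF receptors are known for growth and survival signalling, and ERBB3 is best known for carrying neuregulin signals in the Schwann cell lineage.

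Library totals lay between 16.8 M and 20.9 M counts. Levels are given as CPM, the usual depth-scaled count, here on library sizes scaled by the TMM method, and 1 count was worth 0.0426 to 0.0666 CPM. A single predicted gene, Gm26917, took 18.7% to 22.7% of counts at 0 h and 28.7% to 31.7% at 96 h. The sympathetic neuroblastoma markers Phox2a (77.6 ± 2.4 and 56.1 ± 3.9 CPM at 0 h and 96 h) and Hand2 were well above the detection limit in both groups, while Th stayed below 1 CPM in both means and Dbh went from 4.18 ± 0.27 to 0.445 ± 0.23 CPM. All values after ± are SD over n = 3 libraries unless SE is written. Since these are bulk samples, more RNA per cell and more cells with the RNA cannot be told apart.

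Promoter sequences are shown for 4 receptors that stand for the patterns below: Pdgfra, which rose, Igf1r and Fgfr3, which fell, and Egfr, which was close to 0 throughout. They come from a RefSeq-based table on build GRCm38.p6 (the counts were made on mm39), which matched 6 of the 10 genes. Pdgfrb, Erbb3, Fgfr1 and Insr had no entry. Each window runs from 250 bases before to 50 bases after an annotated start, is written 5′ to 3′ on the gene's strand, and has in capitals the GC box (GGGCGG) and the nuclear receptor half-site (AGGTCA), searched on both strands.
Pdgfra, chr5:75152001-75152300, plus strand: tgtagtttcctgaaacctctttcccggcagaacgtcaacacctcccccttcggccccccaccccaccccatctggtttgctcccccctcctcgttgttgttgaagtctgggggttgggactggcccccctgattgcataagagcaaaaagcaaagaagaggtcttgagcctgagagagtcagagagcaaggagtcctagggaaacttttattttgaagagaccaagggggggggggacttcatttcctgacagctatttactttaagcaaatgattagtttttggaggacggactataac
Igf1r, chr7:67952007-67952306, plus strand: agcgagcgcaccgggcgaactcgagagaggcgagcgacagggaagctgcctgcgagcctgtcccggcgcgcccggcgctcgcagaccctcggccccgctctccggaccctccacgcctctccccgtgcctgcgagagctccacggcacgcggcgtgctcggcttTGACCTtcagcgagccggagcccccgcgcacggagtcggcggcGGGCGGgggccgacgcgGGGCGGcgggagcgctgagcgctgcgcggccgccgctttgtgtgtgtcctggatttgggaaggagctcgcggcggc
Fgfr3 (the first of 2 annotated starts), chr5:33721474-33721773, plus strand: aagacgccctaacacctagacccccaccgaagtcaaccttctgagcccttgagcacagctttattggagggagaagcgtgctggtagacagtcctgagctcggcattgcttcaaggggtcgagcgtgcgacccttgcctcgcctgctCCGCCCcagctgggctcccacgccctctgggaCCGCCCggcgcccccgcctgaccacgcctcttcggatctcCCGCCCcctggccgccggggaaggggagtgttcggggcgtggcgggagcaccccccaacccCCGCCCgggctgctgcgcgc
Egfr, chr11:16751953-16752252, plus strand: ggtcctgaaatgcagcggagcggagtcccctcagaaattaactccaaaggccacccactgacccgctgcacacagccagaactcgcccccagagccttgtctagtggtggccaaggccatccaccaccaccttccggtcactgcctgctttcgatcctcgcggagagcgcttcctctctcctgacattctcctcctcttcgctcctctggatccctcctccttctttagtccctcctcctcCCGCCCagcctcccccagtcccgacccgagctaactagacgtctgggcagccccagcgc

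The windows differed in their number of CpG dinucleotides. Igf1r had 48 in its 300 bases, Fgfr3 26 at this start and 30 at the other, Erbb2 21, Egfr 15, Pdgfra 5 and Fgfr2 4, and the median of 32851 windows of this length was 7. GC boxes were found 4 times in the Fgfr3 window, 2 times in that of Igf1r and once in that of Egfr, and 35.7% of all windows held at least 1. The half-site was found once, in Igf1r at base 165 of the window, against 16.3% of all windows. None of the windows of these 6 genes held the forkhead motif TGTTTAC (3.65% of all windows). None held a direct repeat with a spacer of 5 bases, a form of retinoic acid response element (0.0974% of all windows). Other spacings were not searched. A match or its absence describes these letters only. Of the 5 genes that rose only Pdgfra had a window, so content cannot be compared by direction of change.

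At 96 h the receptor RNA had moved from IGF1R towards INSR and, at lower levels, towards ERBB3 and both PDGF receptors. Of the 10 genes, 7 had enough counts to be tested. Pdgfrb, Pdgfra, Erbb3, Insr and Fgfr1 rose and Igf1r and Fgfr3 fell at a Benjamini-Hochberg adjusted p under 0.05 in edgeR's quasi-likelihood test, fitted on 13705 genes. Of all tested genes, 28.7% passed as higher and 28.8% as lower, 57.4% in all, so that passing the test was common in these libraries. A rise of at least 2-fold that passed was found for 3 members (Pdgfrb, Pdgfra and Erbb3), against 11.7% of all tested genes, and no member fell by that much, against 3.77%. All 96 h libraries lay on one side of all 0 h libraries for 6 of the 7 tested members, the exception being Fgfr1, and for 64.1% of all tested genes. With library size only in place of TMM the median log2 fold change over all tested genes shifted by -0.25, and directions are relative to the TMM scale. Of the 7 directions, that of Fgfr1 turned under library size only.

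**Figure D1:**
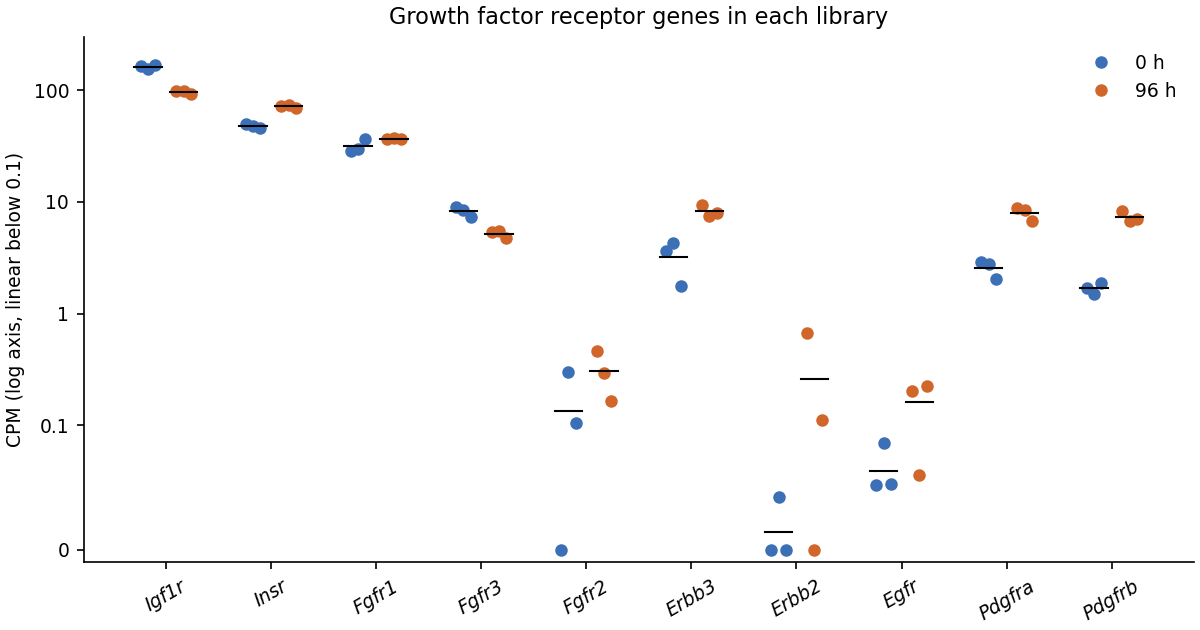
CPM of the 10 receptor genes (horizontal axis, grouped by family) on a log axis that is linear below 0.1. Each point is a library, blue for 0 h and orange for 96 h, and each black line is the mean of 3 libraries; Igf1r and Fgfr3 are lower at 96 h, Insr, Erbb3, Pdgfra and Pdgfrb higher, and Fgfr2, Erbb2 and Egfr stay below 1 CPM in every library.

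Igf1r, the receptor for IGF1 and IGF2, was the most abundant of the 10. It measured 165, 154 and 167 CPM at 0 h and 97.7, 97.7 and 93.0 CPM at 96 h (replicates 1, 2 and 3 in each). Every 96 h library was below every 0 h library, and the 3 libraries of each group lay close together. The mean fell from 162 ± 7.2 to 96.1 ± 2.7 CPM, 1.69-fold lower (log2 fold change -0.75 ± 0.05, SE, edgeR adjusted p = 2.92e-08).

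Insr, the insulin receptor and closest relative of Igf1r, moved the other way. It measured 49.6, 47.9 and 45.7 CPM at 0 h and 72.7, 72.9 and 69.5 CPM at 96 h. All 96 h libraries were higher. The mean rose 1.5-fold, with 47.7 ± 1.9 CPM before and 71.7 ± 1.9 CPM after (log2 fold change 0.59 ± 0.06, SE, edgeR adjusted p = 1.25e-06, and 0.33 with library size only). The count table gives 1 value per gene, so the 2 splice forms of the insulin receptor were not analysed here.

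The balance between both receptors can be read within a library, where the scaling between libraries has no part. Levels between genes are compared as CPM per kilobase of the longest annotated transcript. On that scale Igf1r exceeded Insr 2.73, 2.64 and 3.0 times at 0 h and 1.1 times in each library at 96 h. INSR transcripts took 26.4% ± 1.3 of the summed level of the pair at 0 h and 47.6% ± 0.039 at 96 h. The difference of 21.2 percentage points was as far apart as 3 against 3 libraries can show (exact two-sided permutation p = 0.1, the smallest possible, and 0.167 adjusted over 5 shares compared within families). The 2 receptors can form hybrids, and RNA levels do not measure these.

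Among the FGF receptors, Fgfr1 was the most abundant, Fgfr3 fell, and Fgfr2 had too few counts to be tested. Fgfr1 measured 28.4, 29.8 and 36.7 CPM at 0 h and 36.5, 37.3 and 36.6 CPM at 96 h. Replicate 3 at 0 h lay among the 96 h libraries, so the groups overlapped. The log2 fold change was 0.22 ± 0.09 (SE, edgeR adjusted p = 0.0493), just past the threshold. The call of Fgfr1 was lost on leaving out 0 h replicate 1 or 2 or any of the 3 libraries at 96 h (edgeR adjusted p = 0.223, 0.187, 0.104, 0.117 and 0.106), and without 0 h replicate 3 its log2 fold change was 0.33 (edgeR adjusted p = 0.00206). With library size only it was -0.028 (edgeR adjusted p = 0.811).

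Fgfr3 measured 8.93, 8.43 and 7.26 CPM at 0 h and 5.33, 5.44 and 4.79 CPM at 96 h. The groups did not overlap, and the mean fell 1.58-fold from 8.20 ± 0.85 to 5.18 ± 0.35 CPM (log2 fold change -0.66 ± 0.17, SE, edgeR adjusted p = 0.00351). Fgfr2 had 0, 7 and 2 counts at 0 h and 7, 5 and 3 at 96 h, and its annotation includes exons shared with Ctbp2. Of the summed level per kilobase of these 3 FGF receptors, Fgfr1 took 75.9% ± 4.3 at 0 h and 85.0% ± 1.1 at 96 h, and Fgfr3 23.7% ± 4.3 and 14.2% ± 0.72 (exact permutation p = 0.1 for each, 0.167 adjusted). With the median transcript length in place of the longest, Fgfr3 took 33.9% ± 5.3 and 21.5% ± 1.0. In every library at 96 h Fgfr1 held a larger share than in any at 0 h.

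In the EGF receptor family, Erbb3 carried nearly all of the counts. ERBB3 binds neuregulins, has little kinase activity of its own and signals through a partner, most often ERBB2. Erbb3 measured 3.62, 4.26 and 1.78 CPM at 0 h and 9.32, 7.54 and 7.96 CPM at 96 h. The 0 h libraries differed among themselves, with replicate 3 (34 counts) the lowest, yet all were below the lowest at 96 h. The mean rose 2.55-fold (log2 fold change 1.35 ± 0.26, SE, edgeR adjusted p = 5.35e-04), and the log2 fold change was 1.06 without 0 h replicate 3 (edgeR adjusted p = 7.97e-04).

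Its partners were at the limit of detection. Erbb2, which has no known ligand of its own and pairs with the other family members, had 0, 1 and 0 counts at 0 h and 10, 0 and 2 at 96 h. Most of its 96 h counts thus came from replicate 1. The ratio of summed counts was 14.9 with an exact conditional 95% interval of 2.20 to 635, for counting error only, and without the filter Erbb2 did not pass (edgeR adjusted p = 0.0719). Without 96 h replicate 1 only 1 count at 0 h and 2 at 96 h remain. Exons of Erbb2 overlap those of Mien1 on the other strand, and because the strand setting of the counting is not given, reads of that gene cannot be told apart from those of Erbb2. Egfr, the EGF receptor itself, had 1 to 2 counts per library at 0 h and 1 to 4 at 96 h (edgeR adjusted p = 0.546 without the filter). For Fgfr2 the same value was 0.493. The count ratios were 2.48 (95% interval 0.663 to 11.2) for Egfr and 2.06 (0.846 to 5.35) for Fgfr2, so a change of either was not detectable at this depth.

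Both PDGF receptors were low at 0 h and had the largest rises among the tested receptors. PDGFRA binds PDGF A, B and C chains, and PDGFRB mainly B and D chains. Pdgfra measured 2.89, 2.80 and 2.04 CPM at 0 h and 8.76, 8.42 and 6.68 CPM at 96 h. Pdgfrb measured 1.70, 1.49 and 1.88 CPM at 0 h and 8.26, 6.72 and 7.02 CPM at 96 h. For both genes the lowest 96 h library was above the highest at 0 h.

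The mean of Pdgfra rose 3.07-fold (log2 fold change 1.62 ± 0.21, SE, edgeR adjusted p = 1.77e-05) and that of Pdgfrb 4.33-fold (2.11 ± 0.21, SE, edgeR adjusted p = 1.53e-06). These rises were larger than 93.8% and 96.2% of the log2 fold changes of all tested genes. They rest on 161 and 396 counts for Pdgfra and on 104 and 365 for Pdgfrb, summed over the libraries of each group. Pdgfra took 54.5% ± 7.3 of the summed level of the pair at 0 h and 46.2% ± 3.4 at 96 h, a difference within the spread of libraries (exact permutation p = 0.2, 0.25 adjusted). With the median transcript length these shares of Pdgfra were 83.7% ± 4.1 and 78.9% ± 2.3 (exact permutation p = 0.2), so which of both is higher per kilobase depends on the length taken.

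**Figure D2:**
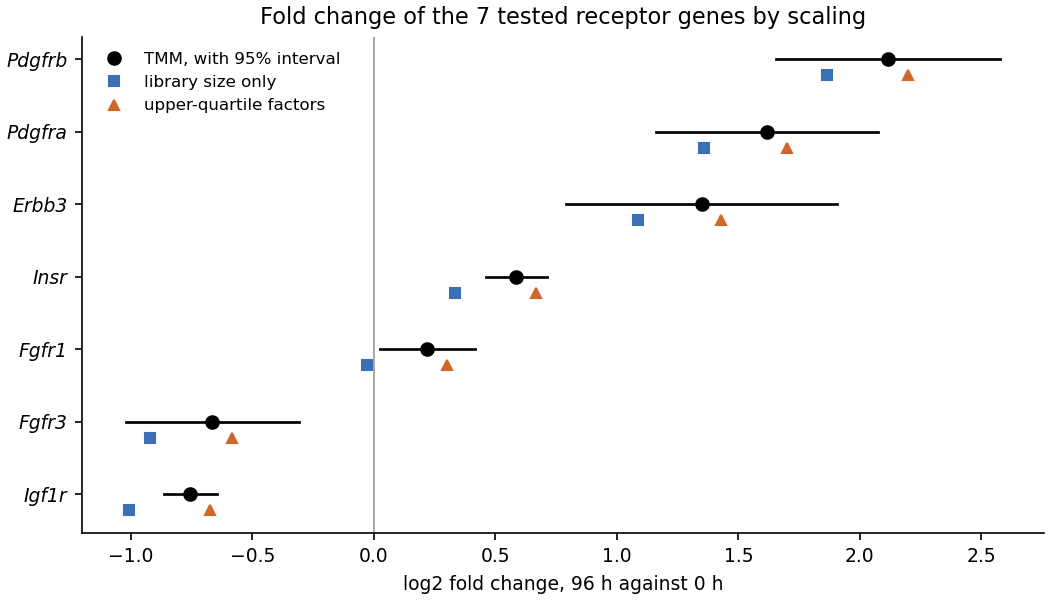
Log2 fold change at 96 h against 0 h (horizontal axis) of the 7 tested receptor genes (vertical axis). Black points and bars are the TMM-scaled estimate with its 95% interval, squares the value with library size only and triangles that with upper-quartile factors; the square of Fgfr1 lies at -0.028, while the other 6 genes keep their side of 0.

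Other cell types were checked because PDGF receptors mark mesenchyme, pericytes and oligodendrocyte precursors, and Erbb3 marks Schwann cells. The 10 fibroblast and mesenchyme markers summed to 2.04 to 2.72 CPM at 0 h and 3.39 to 4.17 CPM at 96 h, with Col3a1, Lum and Postn at 0 counts in every library and 2 of the 10 tested (Dcn higher, 1.28 ± 0.30 to 2.55 ± 0.66 CPM). The 8 pericyte and vessel markers summed to 2.68 to 3.02 and 4.0 to 6.95 CPM, with none at 0 throughout. Of these 8, 3 were tested and Des was higher (0.709 ± 0.19 to 1.85 ± 0.60 CPM). Abcc9 and Notch3, untested and named after their values were seen, had 1 and 13.3 counts at 0 h and 17 and 37 at 96 h. Without the filter 2 of the 8 were higher and 0 lower, where 4070 of 26399 genes were higher and 4180 lower. The marker sums are not scaled by transcript length, so they are not set against the levels of the PDGF receptors. The 9 glial markers summed to 6.86 to 9.50 and 5.76 to 9.93 CPM, with Fabp7 and Mag at 0 and Sox10 at 1 and 4 counts per group. The 7 oligodendrocyte precursor markers summed to 46.3 to 50.2 and 40.4 to 45.9 CPM, mostly Sox8 and Bcan, with Olig2 at 0. Sox8 was lower (35.0 ± 1.7 to 22.8 ± 0.60 CPM) and Bcan higher (9.93 ± 0.80 to 15.6 ± 1.5 CPM). The part of such cells in the rises of Pdgfra, Pdgfrb and Erbb3 was not tested.

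Summed over the 10 receptors, the level per kilobase was 28.8 ± 0.76 at 0 h and 28.6 ± 0.91 at 96 h with TMM scaling (exact permutation p = 0.7), and 31.4 ± 0.34 and 26.2 ± 0.22 with library size only, where every 96 h library was lower (exact permutation p = 0.1). It was also lower in every 96 h library with TMM and the median transcript length (137 ± 3.8 and 124 ± 3.7, exact permutation p = 0.1), so whether the sum differed depends on both choices. What the sum was made of differed under either scaling, since shares within a library do not depend on the scaling. Igf1r took 49.4% ± 1.0 of it at 0 h and 29.4% ± 0.32 at 96 h. Insr took 17.7% ± 1.0 and 26.8% ± 0.33. Fgfr1 took 21.8% ± 2.6 and 25.5% ± 0.85, with overlapping libraries. Erbb3 went from 1.87% ± 0.79 to 4.80% ± 0.46, Pdgfrb from 1.08% ± 0.097 to 4.72% ± 0.44 and Pdgfra from 1.31% ± 0.26 to 4.05% ± 0.45, while Fgfr3 went from 6.73% ± 0.81 to 4.26% ± 0.18. Apart from Fgfr1, each of these shares separated the 0 h from the 96 h libraries (exact permutation p = 0.1, which 3 against 3 cannot go below, and 0.167 adjusted over 10 shares). The size of a share depends on the length taken. With the median transcript length Igf1r took 59.1% ± 1.0 and 38.8% ± 0.13, Erbb3 0.391% ± 0.16 and 1.11% ± 0.12, and Pdgfrb 0.227% ± 0.021 and 1.09% ± 0.11. On that scale Fgfr1 took 12.1% ± 1.6 and 15.6% ± 0.46, and its libraries did not overlap (exact permutation p = 0.1). The direction of each share was the same with both lengths.

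**Figure D3:**
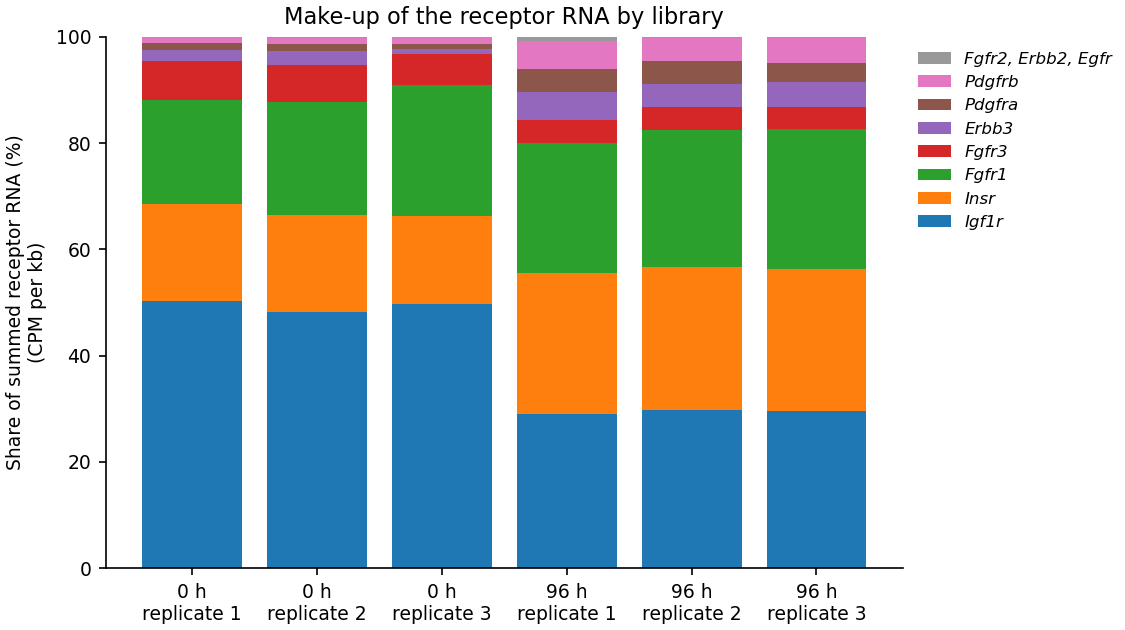
Share of the summed receptor level (CPM per kilobase, vertical axis, in percent) taken by each receptor in each of the 6 libraries (horizontal axis). The Igf1r block shrinks from 49.4% on average at 0 h to 29.4% at 96 h, and the blocks of Insr, Erbb3, Pdgfra and Pdgfrb are larger in all 96 h libraries.

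The order of the receptors by level per kilobase depended on the transcript length taken. With the longest transcript it ran at 0 h from Igf1r (14.2 ± 0.63 CPM per kilobase) through Fgfr1 (6.27 ± 0.89), Insr (5.10 ± 0.21) and Fgfr3 (1.93 ± 0.20) to Erbb3 (0.535 ± 0.21), Pdgfra (0.377 ± 0.069) and Pdgfrb (0.312 ± 0.036). Neighbours from Igf1r down to Erbb3 did not overlap between libraries, and the libraries of Erbb3 and Pdgfra overlapped, as did those of Pdgfra and Pdgfrb. At 96 h the first 3 lay close together, with Igf1r at 8.43 ± 0.23, Insr at 7.67 ± 0.21 and Fgfr1 at 7.30 ± 0.084, still without overlap. A second set of 4 receptors overlapped with each neighbour: Erbb3 (1.38 ± 0.16), Pdgfrb (1.35 ± 0.15), Fgfr3 (1.22 ± 0.082) and Pdgfra (1.16 ± 0.16). With the median transcript length none of the 10 ranks differed between 0 h and 96 h, and both groupings at 96 h were lost: Igf1r, Insr and Fgfr1 stood at 48.1, 42.8 and 19.3, and Fgfr3 and Pdgfra (5.36 and 5.10) lay apart from Erbb3 and Pdgfrb (1.38 and 1.35).

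The remaining receptors of these families were nearly silent. Summed over a group, Erbb4 had 14 estimated counts at 0 h and 8 at 96 h, Fgfr4 2.02 and 1, Fgfrl1, an FGF receptor without a kinase domain, 28 and 26, and Insrr, the insulin receptor-related receptor, 3.15 and 17. None of these 4 was tested. Igf2r, which is no kinase and carries IGF2 to the lysosome, rose to 4.37 ± 0.43 CPM from 1.51 ± 0.11 CPM (log2 fold change 1.53 ± 0.25, SE, edgeR adjusted p = 1.18e-04).

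Ligands were transcribed for some of the receptors and not for others. No insulin or IGF gene was tested: Ins1 and Ins2 had 0 counts, Igf1 had 5 at 0 h and 8 at 96 h, and Igf2, the most abundant, 13.7 and 26.0. Of the 4 PDGF chains 3 were tested and Pdgfa rose from 11.1 ± 1.7 to 16.7 ± 2.1 CPM (log2 fold change 0.59 ± 0.13, SE, edgeR adjusted p = 0.00159), while Pdgfb and Pdgfc did not pass (edgeR adjusted p = 0.122 and 0.0532). With upper-quartile factors 2 of the 3 rose. Of 11 EGF and neuregulin genes 3 were tested. Nrg1, the ERBB3 ligand neuregulin 1, was the most abundant and rose from 12.1 ± 1.5 to 14.9 ± 0.067 CPM (0.30 ± 0.11, SE, edgeR adjusted p = 0.0385), a call lost with library size only (0.04, edgeR adjusted p = 0.796), without the filter (edgeR adjusted p = 0.117), with DESeq2 (adjusted p = 0.0719) and without 0 h replicate 1 or 3 or any library at 96 h (edgeR adjusted p = 0.101, 0.129, 0.0905, 0.0828 and 0.0928).

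Of 22 FGF genes 6 were tested, and 2 rose (4 with upper-quartile factors), where 28.7% of all tested genes rose in the main fit. Fgf11, a member of the intracellular FGF subfamily that does not act through FGF receptors, rose from 0.417 ± 0.093 to 1.75 ± 0.19 CPM (log2 fold change 2.05 ± 0.41, SE, edgeR adjusted p = 6.73e-04). Fgf14, of the same subfamily, had 0.48 ± 0.18 (SE, edgeR adjusted p = 0.0328), a call lost with library size only (0.22, edgeR adjusted p = 0.299) and without 0 h replicate 1 or 96 h replicate 1 or 2 (edgeR adjusted p = 0.12, 0.0893 and 0.0762). Fgf1, the most abundant and a ligand of all FGF receptors, measured 11.1 ± 1.3 and 13.4 ± 1.0 CPM and did not pass (edgeR adjusted p = 0.0669), though it did with upper-quartile factors (0.0218) and without 0 h replicate 1 (0.029). Without the filter 19 FGF genes were tested, of which 4 rose and 1 fell, where 4070 of 26399 genes rose and 4180 fell. Among genes too low for the main fit, named after their values were seen, Fgf15 had 8 counts at 0 h and 51 at 96 h. Fgf21 had 2 and 28, and Fgf18 had 27 and 3.

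Genes named as IGF binding proteins, a group best known for holding IGFs in the extracellular space though not every member does so strongly, moved in both directions. Of 7 genes 5 were tested, 2 rose and 2 fell, where 28.7% of all tested genes rose and 28.8% fell. Igfbp4 measured 183, 178 and 168 CPM at 0 h and 325, 327 and 337 CPM at 96 h, and rose by a log2 fold change of 0.91 ± 0.05 (SE, edgeR adjusted p = 1.93e-09). Igfbp6, which prefers IGF2, rose by 1.77 ± 0.13 (SE). Igfbp7 fell from 4.24 ± 1.7 to 0.912 ± 0.26 CPM and Igfbp2 from 5.80 ± 1.7 to 3.22 ± 0.22 CPM. The median log2 fold change of the tested genes was 0.19 (-0.06 with library size only), against 0.03 for all tested genes.

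Of 16 co-receptors and heparan sulfate proteoglycans 10 were tested, of which 3 rose and 4 fell (with library size only, 2 and 4). Among all tested genes 28.7% rose and 28.8% fell. Lrp1, a large endocytic receptor that binds PDGFRB, rose from 35.0 ± 0.97 to 107 ± 7.4 CPM (1.62 ± 0.06 on the log2 scale, SE), and the neuropilins Nrp2 (0.63 ± 0.07) and Nrp1 (0.23 ± 0.05) rose by less, although under library size only Nrp1 stood at -0.021 and did not pass. The 4 genes that fell were the proteoglycans Gpc6 (-1.30 ± 0.07), Sdc3 (-0.78 ± 0.06), Gpc1 (-0.36 ± 0.07) and Sdc1 (-0.30 ± 0.07), while the proteoglycans Sdc4 (0.46) and Cspg4 (0.39) did not pass. Sdc1, Sdc4 and Cspg4, like 6 further genes named to complete a count of 5 or fewer (Frs3, Crkl, Sh2b1, Akt2, Pdpk1 and Cblb), were chosen after their values were seen.

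Among 19 tested adaptors and docking proteins of 22, 4 rose, 5 fell and 10 did not pass (under library size only, 3 rose and 10 fell, and under upper-quartile factors 6 rose and 2 fell). The main counts stand beside 28.7% higher and 28.8% lower among all tested genes. Irs2, the most abundant insulin receptor substrate, measured 282, 274 and 299 CPM at 0 h and 168, 160 and 150 CPM at 96 h. It fell by 0.84 on the log2 scale (SE 0.05, edgeR adjusted p = 1.33e-08), the same direction as Igf1r and opposite to Insr, while Irs1 (17.4 ± 1.3 and 19.6 ± 2.5 CPM) did not pass. Gab2, a docking protein for PI3K and SHP2, rose from 14.6 ± 0.91 to 45.2 ± 1.5 CPM (1.62 ± 0.08, SE). Shc4 (1.56 ± 0.33), Frs3 (1.11 ± 0.30) and Shc3 (0.37 ± 0.08, a call lost with library size only) also rose. Crk (-0.33 ± 0.06), Frs2 (-0.19 ± 0.06), the docking protein of FGF receptors, Crkl (-0.19 ± 0.08) and Sh2b1 (-0.22 ± 0.08) fell by small amounts. The calls of Crkl and Sh2b1 were lost with upper-quartile factors (edgeR adjusted p = 0.232 and 0.185) and with DESeq2 (adjusted p = 0.057 and 0.0644). Crkl also lost its call without 0 h replicate 1 or 2 or 96 h replicate 1 or 3 (edgeR adjusted p = 0.101 to 0.133), and Sh2b1 without 0 h replicate 3 or any library at 96 h (edgeR adjusted p = 0.0649 to 0.142). The call of Frs2 was lost with upper-quartile factors (edgeR adjusted p = 0.172) and without 0 h replicate 2 or 96 h replicate 1 (edgeR adjusted p = 0.0718 and 0.0522).

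Of 13 PI3K, AKT and phospholipase C gamma genes 12 were tested, of which 3 rose and 5 fell (with library size only, 1 and 7). The shares over all tested genes were 28.7% higher and 28.8% lower. The AKT kinase genes Akt1 (log2 fold change -0.37 ± 0.06, SE) and Akt2 (-0.28 ± 0.08) fell. Pdpk1, the kinase that activates AKT (-0.32 ± 0.07), and Ptpn11, the phosphatase SHP2 (-0.47 ± 0.05), fell too. The regulatory PI3K subunits Pik3r1 (0.61 ± 0.05) and Pik3r2 (0.41 ± 0.06) and the catalytic Pik3cd (0.34 ± 0.12) rose. Under library size only, Pik3r2 and Pik3cd were not past the threshold (edgeR adjusted p = 0.0732 and 0.519), and Pik3cd also did not pass without 0 h replicate 1 or 2 or 96 h replicate 1 or 2 (0.107, 0.139, 0.176 and 0.0715).

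Of 22 genes listed as dampers of receptor signalling 20 were tested, 11 fell, 4 rose and 5 did not pass. Among all tested genes 28.8% fell and 28.7% rose. Under library size only 13 of the list fell and 1 rose, where 5849 of all 13705 tested genes fell and 2409 rose. The list median was a log2 fold change of -0.25, against 0.03 for all tested genes. Flrt3 (-1.53 ± 0.42, SE), named after its value was seen, is among those that fell. It binds FGF receptors and is not an established damper. Il17rd, the FGF antagonist SEF, fell from 28.5 ± 0.40 to 10.0 ± 0.42 CPM (-1.51 ± 0.08, SE, edgeR adjusted p = 4.6e-09). Errfi1, an inhibitor of EGF receptor family kinases, fell by 1.00 (SE 0.10) and Cbl, a ubiquitin ligase that sends activated receptors to degradation, fell by 0.61 on the log2 scale (SE 0.06). Lrig1, which lowers ERBB receptor levels, rose from 3.05 ± 1.4 to 11.2 ± 1.1 CPM (1.89 ± 0.27, SE). Cblb (0.29 ± 0.08), Lrig2 (0.30 ± 0.07) and Rnf41 (0.27 ± 0.06), a ubiquitin ligase for ERBB3, rose by less, and with library size only the calls of Cblb (0.04), Lrig2 (0.04) and Rnf41 (0.02) were lost.

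**Figure D4:**
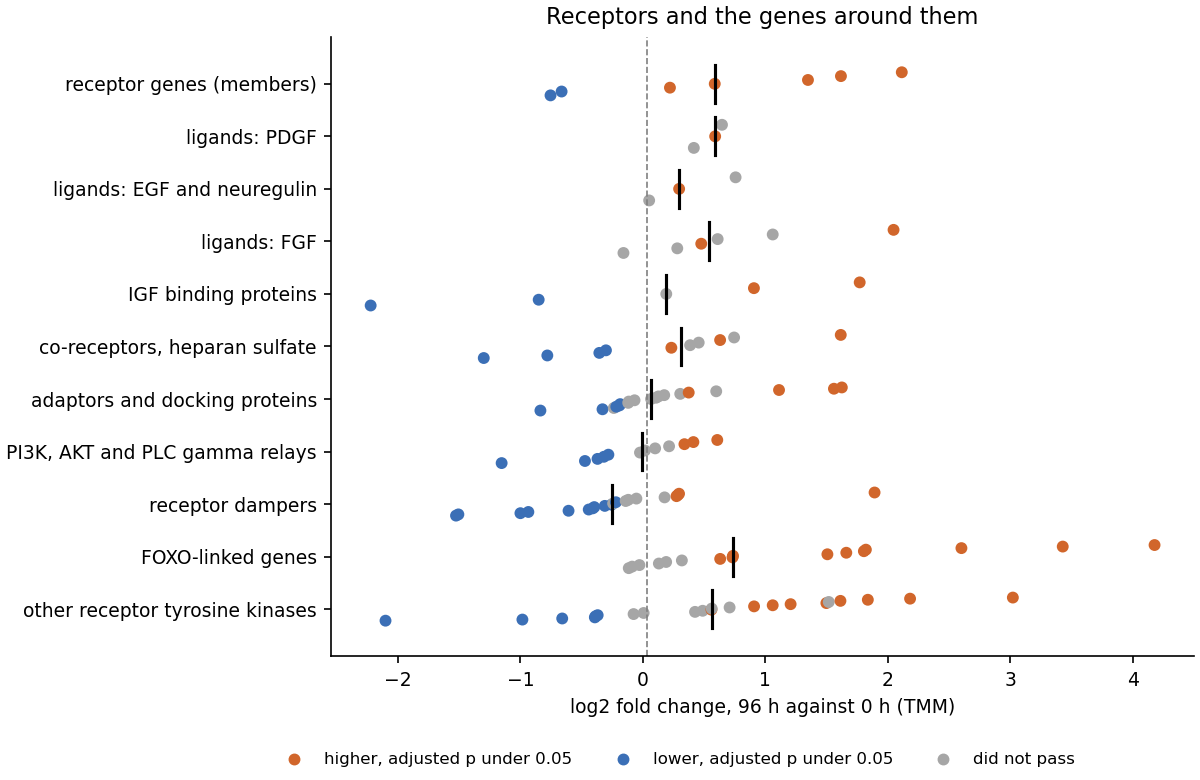
Log2 fold change at 96 h against 0 h (horizontal axis) of every tested gene of the receptor group and of 10 lists around it (vertical axis). Each point is a gene, coloured by whether it passed the test. Black lines are list medians and the dashed line is the median of all tested genes (0.03). Receptor dampers lie mostly left of it, with 11 lower and 4 higher of 20 tested, where all tested genes had 28.8% lower and 28.7% higher.

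Other receptor tyrosine kinases gave a frame for the 10. Of 45 genes 22 were tested, 9 rose, 6 fell and 7 did not pass (under library size only, 8 rose and 7 fell), with a median of 0.56. All tested genes had 28.7% higher, 28.8% lower and a median of 0.03. Ddr2, a collagen receptor, rose from 74.6 ± 3.8 to 228 ± 1.2 CPM (log2 fold change 1.61 ± 0.05, SE), Alk by 1.06 ± 0.07 and Lmtk3 by 2.18 ± 0.20. Ret, with 544 ± 18 and 275 ± 9.2 CPM, fell by 0.98 on the log2 scale, and Ryk (-0.66 ± 0.08) and Ntrk3 (-0.39 ± 0.06) fell less. No difference between both lists was tested.

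Genes with the most similar course over the 6 libraries were sought for the receptors with the largest rise and fall, by the mean absolute difference in log2(CPM + 0.1) after setting the 0 h mean to 0. For Pdgfrb these were Syt7, Bhlhe40, Eif4ebp1, Tmem179 and Dhrs7, with mean differences of 0.0884 to 0.105. For Igf1r they included Tmem164, Flvcr1, Actb and Bmpr2, with differences of 0.0206 to 0.0276. Actb, the beta-actin gene often used as a reference, went from 3022 ± 76 to 1753 ± 37 CPM.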

How the data were processed

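The authors deposited estimated counts per gene, not normalised, for all 6 libraries. Ribosomal RNA was removed before library preparation with a strand-marking Takara kit for small inputs, per the labels' protocols. The submitters' processing notes name Salmon 1.10.1, FastQC 0.12.1, DESeq2 1.52.0 and build mm39. What each did, the annotation and whether counting used strand: not given in the sources used here. Exons of Pdgfra, Erbb2, Fgfr1 and Fgfr3 overlap annotated genes on the other strand.

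Counts were rounded to whole numbers. In edgeR 4.0.16 (R 4.3.3), filterByExpr kept 13705 of 40413 genes, TMM factors scaled the libraries, and the quasi-likelihood F test compared 96 h with 0 h, Benjamini-Hochberg adjusted over all tested genes, at 0.05. The SE is the log2 fold change divided by the square root of F. The fit was tested on simulated data. Shares were compared with exact two-sided permutation tests over libraries, which cannot go below 0.1. Lengths came from GENCODE M21 (GRCm38), matched by symbol for all 10 members.

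The members and lists were chosen with earlier results of these data known. Named were all 10 members, the other receptors of their families, the most abundant gene of each ligand list, from each list the 3 higher and 3 lower genes with the smallest adjusted p among those that passed and reached a mean of 1 CPM, and the 5 genes most like the 2 extreme members; some genes that the rule names are not reported here. Alternatives were DESeq2 1.42.0 size factors and its Wald test, upper-quartile factors, library size only, no filter or 1 CPM in 3 libraries, limma-voom (limma 3.58.1), an adjusted p of 0.01, a test against 1.5-fold, removal of 2577 mitochondrial and structural RNA genes and Gm26917, a replicate block, and leaving out each library. Replicates differed by more than sampling noise in every pair (chi-square per degree of freedom 6.32 to 12.9).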

Additional observations from a re-analysis of the deposited data

How the results depend on the processing

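The directions and calls of Pdgfra, Pdgfrb, Erbb3 and Igf1r were kept under every alternative run. Fgfr1 turned with library size only (-0.028) and did not pass with DESeq2 size factors (0.22, edgeR adjusted p = 0.0561), no filter (0.19, adjusted p = 0.065), the DESeq2 Wald test (0.22, adjusted p = 0.0698), at an adjusted p of 0.01 (0.22) or against 1.5-fold (0.22), and leaving out single libraries gave log2 fold changes of 0.14 to 0.33. Against 1.5-fold, Fgfr3 (-0.66) and Insr (0.59) did not pass either, so that 3 members were higher and 1 lower, and 1515 genes were higher and 852 lower in place of 3927 and 3942. With library size only 2409 genes were higher, and 29.2% of calls were rises in place of 49.9%. Of the other named genes, Nrp1 turned with library size only (-0.021). With the median transcript length, levels at 0 h and 96 h were 81.2 and 48.1 CPM per kilobase for Igf1r, 28.5 and 42.8 for Insr, 16.6 and 19.3 for Fgfr1, 8.48 and 5.36 for Fgfr3 and 1.65 and 5.10 for Pdgfra. The share of Erbb3 in the sum of Erbb2 and Erbb3 was 99.6% at 0 h and 96.8% at 96 h, a difference of -2.79 percentage points, or -0.43 without 96 h replicate 1. Shares and the receptor sum with the median transcript length were an alternative chosen after seeing the data, and none of the 5 shares within families changed direction. Replicate numbers did not pair the libraries (correlations of same-numbered deviations -0.011, 0.027 and -0.0082, and not every library correlated best with its own number); a replicate block gave 5 members higher and 2 lower, and 3854 and 3858 genes. Depth limits Egfr, Erbb2 and Fgfr2, with 12 to 24 counts over all libraries.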

Other observations

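A list of 18 genes linked to FOXO transcription factors was described beside the receptors. AKT signalling downstream of insulin and IGF receptors keeps these factors out of the nucleus. The list holds genes often used as their readouts and also the factor genes Foxo1, Foxo3 and Foxo4, of which Foxo3 (0.73) is counted among those higher. Of 16 tested members 10 were higher, 0 were lower in edgeR (likewise 0 by unadjusted p at 0.05, in DESeq2 and in limma-voom) and 6 did not pass, with a median log2 fold change of 0.73, against 28.7% higher and a median of 0.03 for all tested genes. On the scale of library size only the counts were 10 and 3, and without 0 h replicate 3 they were 10 and 1. Trp53inp1 measured 1.72 ± 0.34 CPM at 0 h and 18.8 ± 0.75 CPM at 96 h (log2 fold change 3.43 ± 0.16, SE). Gadd45a went from 4.02 ± 0.65 to 24.4 ± 2.6 CPM (2.60 ± 0.14, SE) and Pik3ip1, an inhibitor of PI3K, from 6.38 ± 1.2 to 22.2 ± 3.3 CPM (1.81 ± 0.15, SE). The 6 that did not pass, named after their values were seen, were Cdkn1b (-0.12), Bcl2l11 (0.13), Txnip (-0.03), Bnip3 (-0.09), Sesn1 (0.32) and Foxo4 (0.19). Pdk4, with 1 count at 0 h and 0 at 96 h, was not tested. Trp53inp1 and Gadd45a are also p53 and stress response targets, and the list was chosen with earlier results of these data known, so its direction is no independent evidence.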
